A study of Equus caballus with 16 samples.

Results

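miR-26a and miR-101 are mature miRNAs that are both known, from human and mouse cells, to act on the mRNA of EZH2. They were followed here in extracellular vesicles of equine follicular fluid (FF-EV) over 4 phases of the reproductive year. The members were the rows of the table that carried exactly these names, and there were 2 of them among 686 listed miRNAs, of which 324 had at least 1 read in a library. Fluid came from dominant follicles of 30 to 35 mm in mares aged 8 to 14 years, all of one breed, and each library pooled the fluid of 2 to 3 mares. The seasons, with 4 libraries each, were the spring anovulatory phase (SAN, March), the spring ovulatory phase (SOV, April to May), the summer ovulatory phase (SUM, June to July) and the fall ovulatory phase (FOV, September). New follicular waves were started by ablating follicles in every season. The study drew 42 fluids from 19 mares (17 in the series record), with 6 to 12 mares per season. Mares thus gave fluid more than once, and pools of different seasons can share mares and need not be independent. A season with 6 mares also cannot fill 4 pools of 2 to 3 separate mares. Which pools shared mares is not given, and the p-values measure the spread between pools.

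EZH2 is the catalytic subunit of Polycomb repressive complex PRC2 and methylates a lysine of histone H3, a mark found at silenced genes. A miRNA guides an Argonaute protein to mRNAs chiefly through its seed, the bases near its 5′ end, and the bound mRNA is then repressed or degraded. miR-26a is a broadly expressed miRNA, and miR-101 is known in human cancer cells for low levels beside high EZH2, and in mouse uterus for acting on the mRNA of the inducible cyclooxygenase. Follicular fluid bathes the oocyte, cumulus and granulosa cells, and its vesicles carry RNA from the cells that release them. Neither EZH2 itself nor any target mRNA was measured here.

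The mature sequences are shown because both miRNAs are set together for one target, and the seed is the part that would find it. They come from the study's supplementary table of mature miRNAs, run 5′ to 3′, and have bases 2 to 8 in capitals.
miR-26a: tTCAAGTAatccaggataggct
miR-101: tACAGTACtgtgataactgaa
miR-144: tACAGTATagatgatgtact
The seeds of miR-26a and miR-101 had the same base at 2 of 7 positions, so they belong to different seed families. Among 282 miRNAs with both a sequence and a row, 0 others shared bases 2 to 8 with either of them. Other miRNAs were not compared, so seed relatives outside these 282 may exist. miR-144, an erythroid miRNA, is shown because it shares bases 2 to 7 with miR-101, and it had 18 reads over all libraries, against 2759 reads of miR-101.

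All levels are CPM, read counts scaled to library size with the trimmed mean of M-values (TMM). A library held between 27131 and 112146 miRNA reads (median 51696), and a single read stood for 7.91 to 35.6 CPM. Depth below means these miRNA reads, which are a small part of the reads that the study reports per sample. The study removed FOV_1 because its miRNA levels resembled those of SAN in a principal component analysis. FOV_1 was left out of the tests here too, and its values are shown apart. Hence n is 4 in SAN, SOV and SUM and 3 in FOV. SUM_1 and SUM_4 stood apart from SUM_2 and SUM_3, with 60987 and 38066 CPM of miR-218 against 399 and 463 CPM, and with 39848 and 25436 CPM of miR-7 against 1153 and 1353 CPM. The main results that rest on SUM are therefore also given without SUM_1 and SUM_4. Of 7 names on the granulosa and follicle marker list, 6 had a row and all 6 were detected, with a summed level of 3194 to 12883 CPM over the libraries tested.

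miR-26a was abundant in every season and was lower in SUM than in SOV. It took 26637 reads, 2.70% of all, and its level ranked between the 4th (SOV_4) and the 16th (SUM_4) of the miRNAs of a library. miR-101 was about an order of magnitude less abundant, with 0.280% of all reads and library ranks of 28 to 49, and its level did not differ detectably between seasons. 

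**Figure D1:**
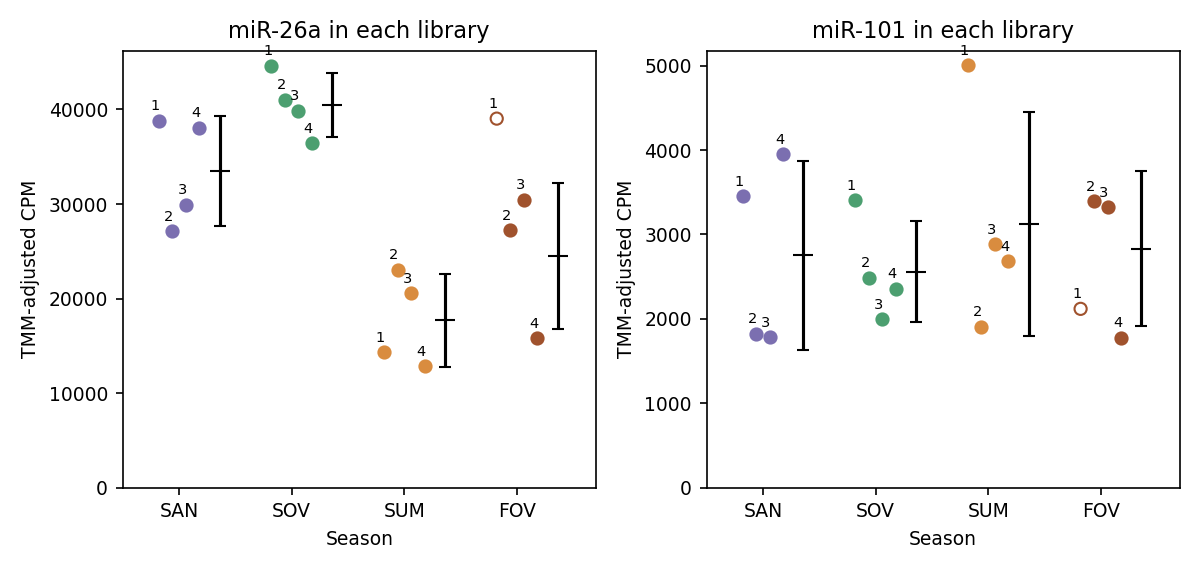
Levels of miR-26a (left) and miR-101 (right) in TMM-adjusted CPM, by season; each point is a library labelled with its replicate number, and bars are the mean and SD of the libraries tested. The open point is FOV_1, which was not tested; all 4 SUM points of miR-26a lie below all 4 SOV points, at 12829 to 23069.8 CPM against 36452 to 44608 CPM.

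In SAN, miR-26a was at 38814, 27143, 29915 and 38056 CPM in replicates 1 to 4. In SOV, it was at 44608, 41004, 39879 and 36452 CPM. In SUM, it was at 14347, 23069.8, 20587 and 12829 CPM. The SUM libraries were all lower than every library of SAN and SOV, and SUM_1 and SUM_4 were the lowest of all. In FOV, miR-26a was at 27245, 30444 and 15797 CPM in FOV_2 to FOV_4, and at 39025 CPM in FOV_1. FOV_4 lay among the SUM libraries, whereas FOV_2 and FOV_3 lay among those of SAN. The season means, with SD, were 33482 ± 5838 CPM for SAN, 40486 ± 3362 CPM for SOV, 17708 ± 4904 CPM for SUM (n = 4 for each of these) and 24495 ± 7701 CPM for FOV (n = 3). With FOV_1 the fall mean was 28128 ± 9608 CPM (SD, n = 4).

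These levels rested on 578 to 3104 reads per library. As a share of the reads of a library, miR-26a ranged from 1.37% in SUM_1 (Wilson 95% interval 1.30% to 1.44%) to 4.20% in SOV_3 (4.02% to 4.38%). Intervals of this kind cover counting error only. Counting error alone would give a coefficient of variation of 2.29% to 2.77%, whereas that between libraries was 17.4% for SAN, 8.30% for SOV, 27.7% for SUM and 31.4% for FOV, so the spread between pools was larger than counting in each season.

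In SUM vs. SOV, miR-26a differed by -1.23 on the log2(CPM + 1) scale (SE 0.29, 95% interval -1.85 to -0.61), a 2.35-fold lower level, with an adjusted p of 0.00832 in limma over 282 miRNAs. A miRNA counted as differentially expressed (DE) where its adjusted p was under 0.05 and its fold change at least 2. By this rule miR-26a was DE lower, and so were 5.67% of all miRNAs tested, while 17.7% were DE in either direction. By size of the fold change miR-26a was the 161st of 282, and by p the 19th. The SUM and SOV libraries did not overlap, which was also the case in the lower direction for 8.16% of miRNAs. The median of all miRNAs stood at 0.51 in this comparison, and relative to it miR-26a was at -1.75. Under median-of-ratios scaling the median of all was 0.27 and miR-26a was at -1.71 relative to it. The median of all was -0.06 without SUM_1 and SUM_4, and miR-26a was at -0.83 relative to it.

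The difference between SUM and SOV kept its direction but lost the call when the libraries that stood apart were left out. Without SUM_1 and SUM_4 it was -0.89, with an adjusted p of 0.0703 in limma. Without the 3 libraries with the most reads, SUM_1, SUM_4 and FOV_4, it was -0.89 with an adjusted p of 0.0256, which is short of 2-fold.

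In SUM vs. SAN, miR-26a was at -0.94 (SE 0.29, 95% interval -1.56 to -0.33), a 1.92-fold lower level. It was at -0.60 without SUM_1 and SUM_4, with an adjusted p of 0.244 in limma. With all 15 libraries the adjusted p in limma was 0.0491, but the fold change was short of 2, so miR-26a was not DE. Of all miRNAs, 5.32% were DE lower and 9.57% in either direction. The adjusted p stayed under 0.05 in 6 of 31 alternatives and was higher in the others. SUM and SAN libraries did not overlap, as in 7.09% of miRNAs in the lower direction. In this comparison the split of DE miRNAs moved with the scaling, from 12 higher and 15 lower to 8 higher and 20 lower under median-of-ratios scaling, 11 and 8 under equal totals, and 17 and 9 under TMM factors of the 15 libraries.

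In FOV vs. SOV, miR-26a was at -0.78 (SE 0.32, 95% interval -1.44 to -0.11, adjusted p 0.168 in limma). It did not pass the test, although FOV_2 to FOV_4 all lay below every SOV library, as they did for 5.32% of miRNAs. Of all miRNAs 2.84% were DE in this comparison. FOV_1, at 39025 CPM, lay within the SOV range. In the other comparisons miR-26a did not pass the test, and the libraries overlapped. The differences were 0.29 in SOV vs. SAN (95% interval -0.33 to 0.90, adjusted p 0.790), -0.49 in FOV vs. SAN (adjusted p 0.441), 0.46 in FOV vs. SUM (95% interval -0.21 to 1.12, adjusted p 0.490, and 0.11 without SUM_1 and SUM_4) and -0.38 for the 3 ovulatory seasons vs. SAN (95% interval -0.89 to 0.13, adjusted p 0.536), all from limma. DE miRNAs made up 0% in SOV vs. SAN, 0.709% in FOV vs. SAN, 3.55% in FOV vs. SUM and 0.355% for the ovulatory seasons vs. SAN. The count of 0 in SOV vs. SAN stood beside 31 miRNAs with an unadjusted p under 0.05 in limma, 0 DE miRNAs in edgeR and 1 in DESeq2.

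Ordered by mean, the seasons ran SOV, SAN, FOV and SUM for miR-26a, and no neighbours in this order passed the test. Over all 4 seasons, the F test of limma gave miR-26a an adjusted p of 0.0323, the 27th lowest p of 282, in a test that 13.8% of miRNAs passed. This call was lost without SUM_1 and SUM_4, at an adjusted p of 0.105, and without the 3 libraries with the most reads, at 0.0999. Leaving out 1 library lost it for SOV_1 (0.0693), SOV_2 (0.0616), SOV_3 (0.0612), SUM_1 (0.0686) and SUM_4 (0.0950). It was also lost under equal totals (0.0563), TMM factors of the 15 libraries (0.0537), the replicate block (0.0524) and edgeR (0.0765), and so in 11 of 29 alternatives.

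**Figure D2:**
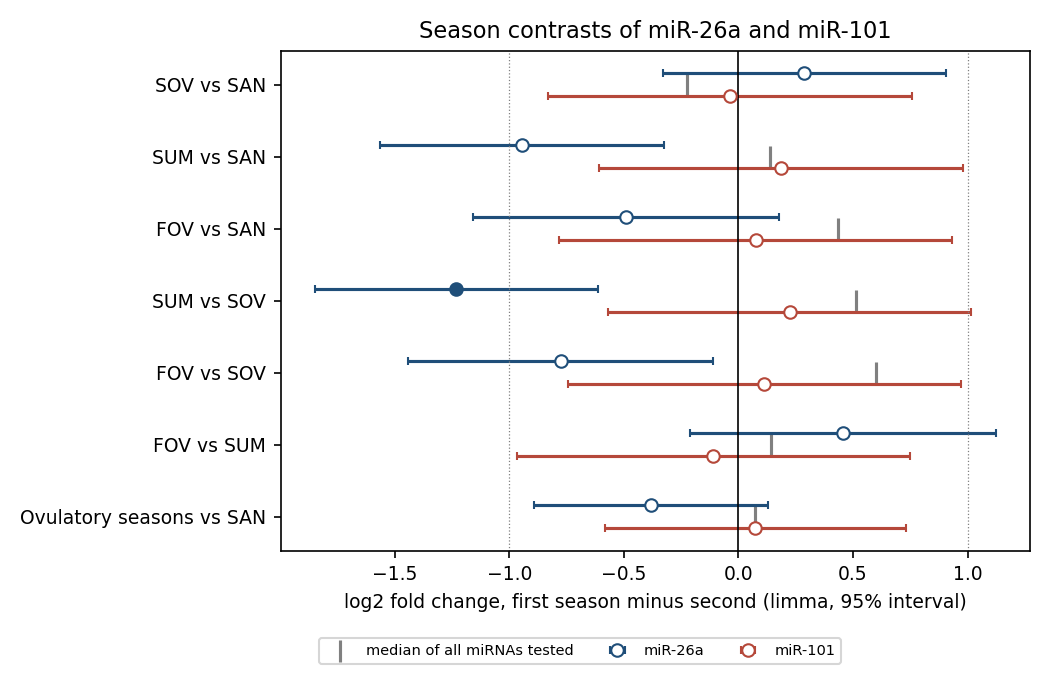
Fitted log2 fold changes of miR-26a (blue) and miR-101 (red), the season named first minus the season named second, with 95% intervals from limma; grey ticks are the median of all 282 miRNAs and dotted lines mark 2-fold. The single filled point is DE, miR-26a in SUM vs. SOV at -1.23; every interval of miR-101 spans 0.

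The lowest levels of miR-26a were also those of the deepest libraries. SUM_1, SUM_4 and FOV_4 had 105466, 110062 and 112146 reads and 14347, 12829 and 15797 CPM of miR-26a. SAN_4, with 94216 reads, had 38056 CPM. Over the 15 libraries, log2 reads and log2 miR-26a had a Pearson r of -0.56 (permutation p 0.0291, adjusted p 0.174 over 6 relations) and a Spearman rho of -0.46 (permutation p 0.0898, adjusted p 0.269). With season means removed r was -0.63 (permutation p 0.0829, adjusted p 0.249). Without SUM_4 and FOV_4, which lie farthest from the median depth, r was -0.26, so the relation rested on those libraries. With log2 reads as a covariate, the difference in SUM vs. SOV was -1.07 (adjusted p 0.0161 in limma) and stayed DE, and the slope on depth was -0.31 per doubling of reads (adjusted p 0.461).

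**Figure D3:**
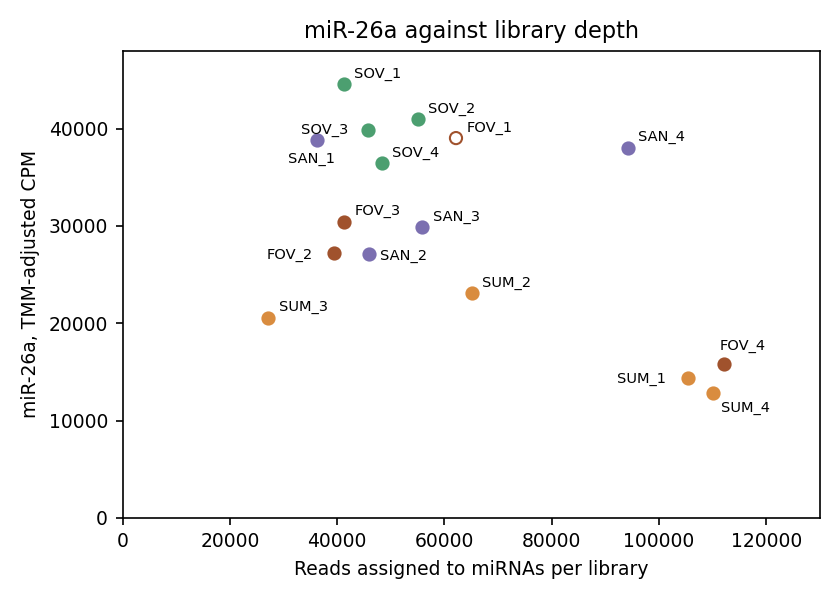
Level of miR-26a in TMM-adjusted CPM against miRNA reads, with a point per library coloured by season and FOV_1 open. SUM_1, SUM_4 and FOV_4 sit at the lower right with 105466 to 112146 reads; SAN_4 has 94216 reads and 38056 CPM.

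Summed levels of some markers of other cells also differed between SUM and SOV. The smooth muscle and stroma markers miR-143 and miR-145, both detected, summed to 10756 to 30596 CPM in SUM, against 169664 to 294666 CPM in SOV. The endothelial markers, of which 2 of 2 were detected, summed to 2222 to 6965 CPM in SUM, against 8858 to 11807 CPM in SOV. The erythrocyte markers summed to 8589 to 73542 CPM in SUM and 6979 to 13447 CPM in SOV, which overlap. All 4 had reads in some library, but miR-144 among them had 0 reads in SUM. The liver marker miR-122 was at 7181 to 9450 CPM in SUM, against 602 to 4100 CPM in SOV. The leukocyte markers summed to 2697 to 6376 CPM in SUM and 1218 to 4567 CPM in SOV. For the muscle markers it was 1732 to 16420 CPM in SUM and 5735 to 12435 CPM in SOV. For the brain markers it was 17275 to 37895 CPM in SUM and 4084 to 26043 CPM in SOV. The leukocyte, muscle and brain ranges overlap. No marker on these lists was at 0 in all libraries, and their part in the result of miR-26a was not tested. In pooled fluid, less miRNA per vesicle and fewer vesicles of a type cannot be told apart.

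miR-101 varied between the libraries of a season more than between seasons. In SAN, it was at 3451, 1825, 1781 and 3948 CPM in replicates 1 to 4. In SOV, it was at 3403, 2489, 1994 and 2358 CPM. In SUM, it was at 5007, 1908, 2885 and 2681 CPM. SUM_1 was the highest of all libraries, and the ranges of the 3 seasons overlapped. In FOV, miR-101 was at 3397, 3326 and 1776 CPM in FOV_2 to FOV_4, and at 2119 CPM in FOV_1. The season means, with SD, were 2751 ± 1114 CPM for SAN, 2561 ± 599 CPM for SOV, 3120.2 ± 1326 CPM for SUM (n = 4 for each of these) and 2833 ± 916 CPM for FOV (n = 3). The order of the means was SUM, FOV, SAN and SOV, and no neighbours differed beyond their spread.

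The levels of miR-101 rested on 81 to 505 reads per library, and its share of the reads ran from 0.164% in FOV_4 to 0.479% in SUM_1. Counting would give a coefficient of variation of 6.16% to 9.17%, whereas that between libraries was 40.5% for SAN, 23.4% for SOV, 42.5% for SUM and 32.3% for FOV. In the 7 comparisons the fitted differences lay between -0.11, in FOV vs. SUM, and 0.22, in SUM vs. SOV. The lowest adjusted p in limma was 0.708, and the seasons overlapped in each pair. The F test gave an adjusted p of 0.941, the 281st of 282 by p. The 95% interval in SUM vs. SOV was -0.57 to 1.02 and that in FOV vs. SUM -0.97 to 0.75, so changes approaching 2-fold were not excluded. The sign of these small differences depended on the scaling. In SOV vs. SAN the difference was -0.04, but 0.09 under median-of-ratios scaling, and in FOV vs. SOV it was 0.11, but -0.18 under that scaling.

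The ratio of miR-26a to miR-101 within a library does not depend on any library scaling. In SAN, it was 11.2, 14.9, 16.8 and 9.64. The SOV libraries had 13.1, 16.5, 20 and 15.5, and the SUM libraries 2.87, 12.1, 7.14 and 4.78. FOV_2 to FOV_4 had 8.02, 9.15 and 8.90. FOV_1 had a ratio of 18.4. The lowest ratios were those of SUM_1 and SUM_4, and the FOV libraries tested were close to each other. The mean ratio, with SD, was 13.1 ± 3.28 for SAN, 16.3 ± 2.86 for SOV, 6.72 ± 3.99 for SUM (n = 4 for each of these) and 8.69 ± 0.595 for FOV (n = 3).

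In SUM vs. SOV the log2 ratio differed by -1.45, and no library overlapped (exact two-sided permutation p 0.0286, adjusted p 0.0857 over 6 pairs of seasons). In FOV vs. SOV it differed by -0.89, again with no overlap (exact permutation p 0.0286, adjusted p 0.0857). In FOV vs. SAN it differed by -0.56 (exact permutation p 0.0571, adjusted p 0.114) and in SUM vs. SAN by -1.13 (exact permutation p 0.0857, adjusted p 0.129). With FOV_1 kept, the differences were -0.29 in FOV vs. SAN and -0.62 in FOV vs. SOV, and the libraries overlapped in both. Differences of 0.33 in SOV vs. SAN and 0.57 in FOV vs. SUM had adjusted p values of 0.24 and 0.371 in the same exact permutation test. None of the 6 pairs passed after adjustment. Neither 4 against 4 nor 3 against 4 libraries can give an exact p below 0.0286, the value of SUM vs. SOV and FOV vs. SOV. A single pair at that p cannot pass after adjustment over 6 pairs, so the lack of a call decides little. Without SUM_1 and SUM_4 the log2 ratio differed by -0.79 in SUM vs. SOV and by -0.47 in SUM vs. SAN, and in FOV vs. SUM it turned to -0.10.

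**Figure D4:**
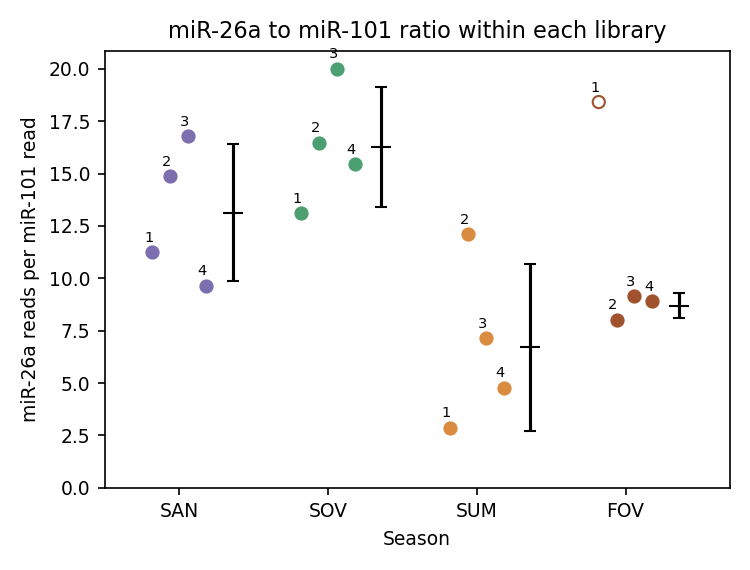
Reads of miR-26a per read of miR-101 in each library, by season; points are libraries labelled with their replicate number, the open point is FOV_1, and bars are the mean and SD of the libraries tested. The 4 SUM libraries lie between 2.87 and 12.1, all below the 4 SOV libraries at 13.1 to 20.

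Across the 15 libraries no relation between the levels of the 2 miRNAs was detectable, with a Pearson r of 0.00 (permutation p 0.995) and a Spearman rho of 0.18 (permutation p 0.517). With season means removed r was 0.33 (permutation p 0.336, adjusted p 0.673 over 6 relations). Without SUM_1 and SUM_4, the libraries farthest from the median of miR-26a, r was 0.43 pooled and 0.78 with season means removed. Within SAN, replicates 1 and 4 were higher in both miRNAs than replicates 2 and 3, and within FOV, FOV_2 and FOV_3 were higher in both than FOV_4. SUM_1 went against this, with the highest miR-101 and a low miR-26a.

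miR-26a was one of the steadier miRNAs within seasons. Its SD on the log2 scale within seasons was 0.34, the 9th lowest of 282 and the 8th lowest of 60 abundant miRNAs (mean over 1000 CPM), whose median was 0.56. miR-101, at 0.52, was the 39th lowest of 282 and the 29th of the 60. The part of the variance between libraries that lay between seasons was 73.7% for miR-26a and 3.75% for miR-101, against a median of 55.6% for the 60 abundant miRNAs. miR-101 had the lowest such share of these 60.

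The miRNAs whose log2 levels were most like those of miR-26a over the 15 libraries were let-7f (r = 0.92), miR-126-3p (r = 0.88), miR-143 (r = 0.86), miR-145 (r = 0.82) and miR-28-5p (r = 0.79). These values are a description, since all points share the library and its scaling. miR-126-3p is known from endothelium, and miR-143 and miR-145 share a precursor transcript and mark smooth muscle. With season means removed, the r was 0.74 for let-7f, 0.83 for miR-126-3p, 0.76 for miR-143, 0.59 for miR-145 and 0.36 for miR-28-5p. These values pool the deviations of all seasons, and the likeness did not hold in every season. Within SOV, SOV_4 had the highest let-7f, at 26022 CPM, and the lowest miR-26a, at 36452 CPM. The miRNAs most like miR-101 were others, miR-30e (r = 0.75), miR-32 (r = 0.72), miR-340-5p (r = 0.65), miR-331 (r = 0.64) and miR-137 (r = 0.60), with 0.90, 0.71, 0.88, 0.67 and 0.61 once season means were removed. miR-137, a neuronal miRNA, had 73 reads in 6 libraries, 68 of them in SUM, so its likeness rests on few reads. The likeness of miR-331 and miR-32 also rests on few reads, with means of 40.6 and 68.6 CPM. So does that of miR-28-5p to miR-26a, with a mean of 128 CPM.

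Other miRNAs known to act on EZH2 mRNA in human or mouse cells formed a list of 18 names with the 2 members, and 15 of them were measured and tested. Several of these belong to the let-7 family, which restrains proliferation and is known to promote differentiation. In SUM vs. SOV, 2 of 15 were DE, miR-26a and let-7f, and both were lower, where 17.7% of all miRNAs were DE. let-7f was at 10331, 10441, 13000.5 and 8526 CPM in SUM, against 25707, 19463, 20832 and 26022 CPM in SOV. These libraries did not overlap, as in 8.16% of all miRNAs in the lower direction. The difference was -1.13 (SE 0.28, adjusted p 0.0101 in limma). Without SUM_1 and SUM_4 it was -0.97 with an adjusted p of 0.0529, and the call was lost in 5 of 31 alternatives. The median difference of the 15 was -0.35, against 0.51 for all 282 miRNAs, and 8 of the 15 had a negative sign, as did 112 of the 282.

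In SUM vs. SAN, 1 of 15 was DE, let-7c, and it was lower, where 9.57% of all miRNAs were DE. The list median was -0.70, against 0.14 for all miRNAs. let-7c was at 13633, 16178, 12609 and 8415 CPM in SUM, against 21981, 39117, 50744 and 23282 CPM in SAN, a difference of -1.36 (SE 0.31, adjusted p 0.0168 in limma). let-7c was also the single DE member of the list, lower, in FOV vs. SAN (-1.60, adjusted p 0.0213 in limma), where 0.709% of all miRNAs were DE. Leaving out SUM_4 lost the call of let-7c in SUM vs. SAN, at -1.17 with an adjusted p of 0.0559, and without both SUM_1 and SUM_4 it was at -1.15 with an adjusted p of 0.0459. Its call in FOV vs. SAN was lost in 7 of 31 alternatives, among them without SAN_2 (adjusted p 0.089), SAN_3 (0.0668) or FOV_2 (0.0759). It was also the 1 DE miRNA of the list, lower, for the ovulatory seasons vs. SAN, where it was the only DE miRNA of all 282. No miRNA was DE there under equal totals, under TMM factors of the 15 libraries, or without SAN_2, SAN_3 or FOV_2. In SOV vs. SAN, FOV vs. SOV and FOV vs. SUM 0 of 15 were DE. The comparisons that involve SAN share its libraries, so these calls are not separate evidence. Several of the list were close to the detection limit. miR-138 had 18 reads over all libraries, miR-217, a miRNA of the exocrine pancreas, had 5, and miR-124, a neuronal miRNA, had 66. miR-214, which is known to act on EZH2 in mouse muscle precursors, had 440 reads. Its mean was 945 CPM in SAN (SD 638, n = 4), 328 CPM in SOV (SD 101, n = 4), 333 CPM in SUM (SD 57.1, n = 4) and 276 CPM in FOV (SD 118, n = 3). For the ovulatory seasons vs. SAN it was at -1.36, with an adjusted p of 0.181 in limma, and it was not DE in any comparison.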

How the data were processed

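FF-EV small RNA of 16 libraries, 4 per season, was sequenced. The authors deposited a signal, CPM adjusted by TMM, which they derived from miRNA counts. The methods of the study name CLC Genomics Workbench 21 with miRBase 22 and EquCab 3.0 as references. The submitters' processing notes name Bowtie2 2.2.2 and DESeq2, and which of them applies was not settled. Divided by 1 step per library, 100% of values were whole reads (tolerance 1e-06), and shares and count tests used those reads.

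In limma 3.58.1 (R 4.3.3), log2(CPM + 1) was modelled by season with an intensity trend over 15 libraries, without FOV_1, for 282 miRNAs whose mean exceeded 10 CPM in 1 or more seasons. Contrasts were the later minus the earlier season, and two-sided p-values were adjusted per comparison after Benjamini-Hochberg. DE needed an adjusted p under 0.05 and a fold change of at least 2. A fold change on this scale understates the change of low miRNAs. Ratios were compared by exact permutation tests, and correlations by 100000 permutations (scipy 1.17.1). Fits were tested on simulated data. Alternatives were other pseudocounts, filters, scalings, fits, edgeR 4.0.16 and DESeq2 1.42.0 on whole reads, and leaving out each library. The fits without SUM_1 and SUM_4, without the 3 deepest libraries and with depth as a covariate, and the relations with depth, were added after the data had been seen.

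The miRNAs described were the 2 members, those sharing their seeds, the 5 with the most similar levels to each, and a list of miRNAs known to act on EZH2. The members and lists were chosen with earlier results of these data known. Of the list, miR-26b, let-7b and let-7i were not analysed here.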

Additional observations from a re-analysis of the deposited data

Results flagged for a closer look

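The ratio of miR-26a to miR-101 in FOV had 1 library far from the others. FOV_1 was at 18.4, while FOV_2 to FOV_4 were at 8.02, 9.15 and 8.90, and the gap from FOV_1 to the nearest of them took up 0.891 of the range of the 4. Of 12 groups of 4 libraries examined in this way (both miRNAs and their ratio in each season), this was the only one past the 95% limit, and chance passes it in about 1 of 20 groups. FOV_1 was left out of the tests as in the study. With it, the mean of miR-26a in FOV was 28128 ± 9608 CPM (SD, n = 4), against 24495 ± 7701 CPM (SD, n = 3) without it. With it, the log2 ratio differed by -0.29 instead of -0.56 in FOV vs. SAN and by -0.62 instead of -0.89 in FOV vs. SOV.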

How the results depend on the processing

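The lower level of miR-26a in SUM vs. SOV kept its direction in all 31 alternatives and was DE in 29, with differences between -1.44 and -0.89 and adjusted p between 0.000108 and 0.0703. The call was lost without SUM_1 and SUM_4 (-0.89) and without the 3 libraries with the most reads (-0.89), both with fewer samples. Both differences were short of 2-fold, and the second still had an adjusted p under 0.05 in limma. miR-26a became DE in SUM vs. SAN under median-of-ratios scaling (-1.02) and in FOV vs. SOV in DESeq2 (-1.06), and the cause was not tested. Its F test had an adjusted p of 0.0563 under equal totals, 0.0537 under TMM factors of the 15 libraries, 0.0765 in edgeR, 0.105 without SUM_1 and SUM_4 and 0.0999 without the 3 deepest libraries.

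miR-101 was not DE in any alternative, and its small differences changed sign as follows, for causes not tested. SOV vs. SAN was 0.092 under median-of-ratios scaling, 0.071 under TMM factors of the 15 libraries, 0.013 in edgeR and 0.031 in DESeq2. FOV vs. SAN was -0.015 with FOV_1 kept, -0.088 under median-of-ratios scaling and -0.16 in DESeq2. FOV vs. SOV was -0.18 under median-of-ratios scaling and -0.19 in DESeq2. SUM vs. SOV was -0.024 in DESeq2, and the ovulatory seasons vs. SAN -0.040. Without SUM_1 and SUM_4, and also without the 3 deepest libraries, SUM vs. SAN was -0.14 and SUM vs. SOV -0.10. FOV vs. SUM was 0.21 and 0.52 in those fits, and the ovulatory seasons vs. SAN -0.033 in the first. The log2 ratio of the miRNAs in FOV vs. SUM was -0.10 without SUM_1 and SUM_4, and their Pearson r was -0.039 with FOV_1 kept and -0.090 under equal totals.

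No pairing of libraries by replicate number was detectable. Of 21 same-numbered pairs, 3 had deviations correlated above 0.1, and 4 libraries correlated best with a library of their own number. The median r was 0.011 for same-numbered pairs and -0.003 for other pairs. Such correlations cannot show whether same-numbered pools shared mares. With the replicate number as a block, miR-26a in SUM vs. SOV was at -1.23 (adjusted p 0.0115), its F test at an adjusted p of 0.0524, miR-101 in FOV vs. SUM at 0.071, and the F test passed for 24 miRNAs, against 39.

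Counts of DE miRNAs moved more. In SUM vs. SAN they were 27, against 16 with no filter, 44 in edgeR and 53 in DESeq2. In FOV vs. SAN they were 2, against 1 with FOV_1 kept and under TMM factors of the 15 libraries, 4 with a filter of 100 CPM, with the compared seasons alone and with robust moderation, 0 in edgeR, 16 in DESeq2, 5 without SUM_1 and SUM_4 and 8 without the 3 deepest. In FOV vs. SOV they were 8, against 13 with a pseudocount of 5 CPM, 4 under median-of-ratios scaling (3 higher and 1 lower, against 8 and 0) and 20 in DESeq2. In FOV vs. SUM they were 10, against 6 with the compared seasons alone, 17 in DESeq2, 34 without SUM_1 and SUM_4 and 42 without the 3 deepest. For the ovulatory seasons vs. SAN the count was 1, against 0 under equal totals and TMM factors of the 15 libraries, 19 in DESeq2 and 2 with depth as a covariate. SOV vs. SAN had 0, against 1 in DESeq2, and the F test 39, against 68 in edgeR.

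Leaving out 1 library at a time, miR-26a ranged from -1.37 to -1.09 in SUM vs. SOV, -1.09 to -0.80 in SUM vs. SAN and -0.96 to -0.49 in FOV vs. SOV, and its F test from an adjusted p of 0.0168 to 0.0950. miR-101 ranged from -0.22 to 0.17 in SOV vs. SAN, -0.073 to 0.39 in SUM vs. SAN, -0.10 to 0.38 in FOV vs. SAN, -0.034 to 0.43 in SUM vs. SOV, -0.048 to 0.42 in FOV vs. SOV, -0.32 to 0.20 in FOV vs. SUM and -0.10 to 0.28 for the ovulatory seasons vs. SAN. The Pearson r of the miRNAs ranged from -0.15 to 0.31. Counts of DE miRNAs ranged from 0 to 5 in SOV vs. SAN, 10 to 27 in SUM vs. SAN, 0 to 6 in FOV vs. SAN, 32 (without SOV_1) to 57 in SUM vs. SOV, 6 to 15 in FOV vs. SOV, 4 to 19 in FOV vs. SUM, 0 to 5 for the ovulatory seasons vs. SAN and 20 to 50 in the F test. With 4 pools or fewer per season, the level of miR-101, at 81 to 505 reads, was limited by the spread between pools rather than by counting.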

Other observations

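At the other end of the ordering by likeness, miR-25, a miRNA of the miR-106b cluster, had levels most opposed to miR-26a over the 15 libraries (r = -0.94, and -0.83 with season means removed). It was picked after its values were seen. miR-25 was at 10083, 4496, 2956 and 8550 CPM in SUM, against 1361, 1791, 1516 and 1593 CPM in SOV. SUM_1 and SUM_4, the lowest libraries of miR-26a, were the highest of miR-25, and FOV_4 followed with 6079.5 CPM.

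Within SAN, let-7c split the libraries opposite to both miR-26a and miR-101. It was at 39117 and 50744 CPM in replicates 2 and 3, the lower ones for both miRNAs, and at 21981 and 23282 CPM in replicates 1 and 4.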
